A study of Homo sapiens with 6 samples.

Results

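The replication-dependent histone genes were taken as all protein-coding genes whose GENCODE 29 symbol starts with HIST1H, HIST2H, HIST3H or HIST4H. The rule, which used no measured value, found 71 of the 58735 genes measured. They divided into 6 linker histone H1 genes, 17 H2A, 18 H2B, 15 H3 and 15 H4 genes. By symbol, 55 were HIST1 genes (GRCh38 chr6:25726132-27893843), 12 HIST2 genes (chr1:143905556-149887916) and 3 HIST3 genes (chr1:228424845-228460470). HIST4H4 stood alone on chromosome 12 (chr12:14767999-14771131). The HIST2 span begins with HIST2H3PS2 (chr1:143905556-143905966), which lies apart from the other HIST2 genes, the nearest of which starts at chr1:149782689.

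Replication-dependent histones supply the protein around which new DNA is wrapped, and their genes are switched on as cells enter S phase. H2A, H2B, H3 and H4 form the nucleosome core, while H1 binds the DNA between nucleosomes. Their mRNAs are the animal mRNAs that usually carry no poly(A) tail: a conserved stem-loop just past the stop codon is bound by SLBP, cut by a machinery that contains the U7 small nuclear RNA, and kept as the mRNA end. Some histone genes also make polyadenylated mRNA, mostly described in cells that have left the cell cycle. Variants such as H3.3, H2A.Z and H1.0 come from other genes, which are transcribed through the whole cell cycle into polyadenylated mRNA.

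The samples were 6 libraries of HOK-16B, an immortalized line of oral keratinocytes, the epithelial cells lining the mouth. All cells were exposed to an inflammatory stimulus. Before it, 3 samples were given cannabidiol (CBD), a cannabis compound that does not intoxicate, and the other 3 were given vehicle. The labels name no stimulus, dose or time. Their titles and cell line tags give HOK-16B throughout, but the free description counts up from HOK-16B to HOK-21B across the samples. Values listed for a group follow the order of its replicates 1 to 3. Whether replicates were cultured separately is not labelled, and p-values therefore rest on a sample-to-sample spread that may be technical. In RNA from a whole culture, fewer cells in S phase and less histone mRNA per cell cannot be told apart.

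The stem-loop that ends histone mRNA was looked for in the annotated transcripts, because it marks where the mature mRNA ends. It was found in 32 of the 71 genes, beginning 22 to 67 bases past the stop codon (median 35.5). There were 6 forms of the sequence, shown here 5′ to 3′ in the sense of the mRNA by 1 example each (GRCh38), with the 4-base loop in capitals between the arms of the 6-pair stem:

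HIST1H2AC (chr6:26124669-26124684, plus strand): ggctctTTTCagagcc

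HIST1H2BD (chr6:26158587-26158602, plus strand): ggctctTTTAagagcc

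HIST1H4H (chr6:26285131-26285146, minus strand): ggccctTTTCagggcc

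HIST1H4I (chr6:27139654-27139669, plus strand): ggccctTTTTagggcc

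HIST1H3E (chr6:26225596-26225611, plus strand): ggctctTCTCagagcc

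HIST1H2AG (chr6:27133515-27133530, plus strand): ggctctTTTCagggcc

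The first form, shown for HIST1H2AC, was held by 17 genes (6 H2A, 8 H2B and 3 H3). The form of HIST1H2BD was held by 5 genes (3 H2B and 2 H3), that of HIST1H4H by 5 H4 genes and that of HIST1H4I by 3 H4 genes, while those of HIST1H3E and HIST1H2AG were each held by 1 gene. All 8 H4 genes with a match had a C-G pair as the fourth pair of the stem, counted from its outer end, and 0 of the 24 other genes with a match did. Counting A-T and G-C pairs only, the stem paired along all 6 positions in 31 of the 32 genes. In HIST1H2AG the fourth pair is a T with a G, a wobble pair that can form in RNA. Among the other 19613 protein-coding genes, 18 (0.0918%) held the same consensus in a protein-coding transcript. Of the 39 histone genes without a match, 35 are annotated only up to the stop codon, so the search could not reach their ends.

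Promoters of the genes were compared for 3 short elements of histone promoters, the octamer ATTTGCAT bound by OCT1, CCAAT and TATAAA, each on both strands from 250 bases before to 50 bases after the RefSeq start (GRCh38.p14). The table held promoters for 66 of the 71 genes. The octamer was present in 14 of 18 H2B and 11 of 16 H2A promoters, in 1 of 13 H3 promoters and in 0 of 6 H1 and 0 of 13 H4 promoters, against 1.80% of all 27305 promoters. The H3 promoter with the octamer, of HIST1H3D, is the same window as that of the H2A gene HIST1H2AD and was counted under both. Windows of H2A and H2B genes read away from each other can overlap, so that a single octamer counts under both types. The octamers of HIST1H2AC and HIST1H2BC, whose starts lie 219 bases apart, are the same site. The H2A and H2B counts are therefore not independent. CCAAT was present in every H1, H2A, H2B and H3 promoter examined and in 3 of 13 H4 promoters, against 35.7% of all. TATAAA was present in 44 of the 66, against 11.95% of all. None of the 3 motifs contains another, though matches may overlap. The 150 bases before the start are shown for HIST1H2BK, the gene with the highest level, for HIST1H2BD and HIST3H2A, whose CBD values all lay above the vehicle values, and for HIST1H4I, whose CBD values all lay below. Each reads 5′ to 3′ towards the gene with the motifs in capitals:

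HIST1H2BK (chr6:27146859-27147008, minus strand): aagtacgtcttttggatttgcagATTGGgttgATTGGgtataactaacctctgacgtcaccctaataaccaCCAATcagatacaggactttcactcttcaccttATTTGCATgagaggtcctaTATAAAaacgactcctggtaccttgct

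HIST1H2BD (chr6:26157971-26158120, plus strand): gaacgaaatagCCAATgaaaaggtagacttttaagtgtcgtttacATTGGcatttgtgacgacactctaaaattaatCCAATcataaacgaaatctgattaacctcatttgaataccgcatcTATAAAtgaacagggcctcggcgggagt

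HIST3H2A (chr1:228457874-228458023, minus strand): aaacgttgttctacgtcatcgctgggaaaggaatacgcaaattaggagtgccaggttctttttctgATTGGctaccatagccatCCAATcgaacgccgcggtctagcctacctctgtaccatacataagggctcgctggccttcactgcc

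HIST1H4I (chr6:27139132-27139281, plus strand): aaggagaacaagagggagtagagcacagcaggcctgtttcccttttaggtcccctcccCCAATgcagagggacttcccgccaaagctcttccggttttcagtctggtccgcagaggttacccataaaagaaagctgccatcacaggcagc

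HIST1H2BK carries all 3 elements, HIST1H2BD carries CCAAT (read on either strand) and TATAAA without the octamer, and HIST3H2A and HIST1H4I carry CCAAT only. A match in letters is a description of the window and says nothing of binding in these cells.

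Levels are given as FPKM, fragments per kilobase of exon scaled to library depth. These can be compared between genes of different length as far as the annotated exons match the mRNA. The number of fragments behind each value was recovered from the FPKM, and the libraries held 18213784 to 22158614 fragments in genes. The 71 histone genes took 3063 to 4024 of these per library, which was 0.0167%, 0.0177% and 0.0168% of a library in the vehicle and 0.0181%, 0.0187% and 0.0181% in the CBD group, so the groups did not overlap. Vehicle replicate 1 differed most from the other vehicle libraries (chi-square per gene over all genes 11.3 and 18.4, against 4.75 between the other vehicle libraries and 3.09 to 3.22 among CBD libraries). The mean GC content of a counted fragment was 49.6% to 50.3% in vehicle and 50.7% to 50.8% in CBD libraries. The fit was therefore repeated after a trend in GC content was removed, and its value stands beside a printed difference that it moved by over 1.5 times.

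The histone mRNA measured came from few genes. Of the 71 genes, 12 had no fragment in any library, 11 more had 1 to 10 fragments over all 6 libraries, and only 7 reached a mean of 5 FPKM. The 6 highest, HIST1H2BK, HIST1H1C, HIST3H2A, HIST1H2BD, HIST1H2AC and HIST2H2BE, together held 64.0% of all fragments of the family. HIST1H2BK, a core H2B gene, had a mean of 64.2 FPKM, followed by the linker histone gene HIST1H1C at 29.5 FPKM. H2B genes took 49.6% of the family's fragments, H2A genes 21.6%, H1 genes 12.2%, H3 genes 8.44% and H4 genes 8.16%.

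**Figure D1:**
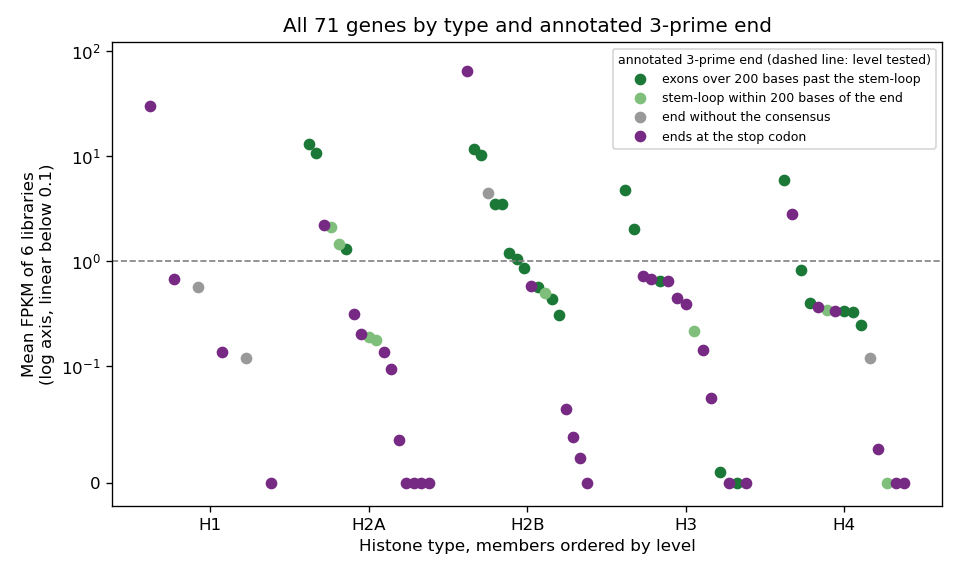
Mean FPKM over the 6 libraries (log axis, linear below 0.1) of each of the 71 genes, grouped by histone type and coloured by where the annotated exons end relative to the stem-loop; the dashed line marks the mean of 1 FPKM required for testing. Each type has 1 to 8 genes above the line and a tail reaching 0, and the 2 highest genes end at the stop codon.

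Levels were set beside how far the annotation of each gene runs. In 24 genes the exons extend over 200 bases past the stem-loop, and these genes had a median level of 0.953 FPKM and held 66.4% of the family's fragments. Exons of 8 genes end within 200 bases of the stem-loop, with a median of 0.277 FPKM. The 35 genes annotated only to the stop codon had a median of 0.136 FPKM, with 10 of them at 0 in every library, yet they include HIST1H2BK and HIST1H1C. For such genes, fragments that lie past the stop codon are not counted. Only protein-coding transcripts were searched for a poly(A) signal. AATAAA stood in the last 40 bases of such a transcript in 19 of the 71 genes (26.8%), against 68.9% of the other protein-coding genes. ATTAAA stood there in 3 (4.23%) against 24.8%. The 71 include the 35 genes annotated only to the stop codon, in which a signal past it could not be found. The shares are therefore not like for like and do not show how many histone genes have a signal. Because the exon models differ in this way, the part of the annotation in the order of levels between genes was not tested.

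How well the libraries hold RNA without a poly(A) tail bears on every level of the family. The labels describe total RNA and name neither poly(A) selection nor removal of ribosomal RNA. Of the 6 abundant RNAs without a poly(A) tail listed for this check, RN7SK, RMRP, RPPH1, TERC and RN7SL1 were listed at 0 in all 6 libraries, as was RNU7-1, the gene of the U7 RNA. RN7SL2, an RNA of the signal recognition particle, had 2.63, 20.5 and 11.2 FPKM in the vehicle and 37.2, 74.5 and 24.7 in the CBD libraries. Its 2 groups did not overlap, with a difference of 2.09 ± 0.67 (SE, n = 3 and 3) on the log2(FPKM + 1) scale that did not pass the test (limma, adjusted p = 0.0996) but passed by limma-voom (adjusted p = 0.0312). RN7SL2 has a near-identical copy in RN7SL1, which was at 0, and how fragments that match both were counted is not given. The part of this in the histone levels was not tested.

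Copies of near-identical sequence limit some genes further. HIST2H4A and HIST2H4B had means of 0.330 and 0.324 FPKM, and HIST2H4A stood at 1.54 FPKM in CBD replicate 2 and at 0.0543 to 0.121 in the other 5 libraries. HIST2H2AA3 and HIST2H2AA4, another duplicated pair, had 14 and 13 fragments over all libraries. How fragments that match several genes were counted is not given in the sources used here, so the level of any 1 copy is uncertain. A further 5 genes share over 50% of their exon bases with another annotated gene, and all 5 were at 0 (HIST1H2AD, HIST1H2AK, HIST1H2AM, HIST1H3D and HIST2H3PS2). None of the 19 genes tested for a difference shares exon bases with another gene.

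Pairs of histone genes read away from each other offered a comparison of neighbours. There were 12 pairs of an H2A or H3 gene and an H2B gene with starts less than 500 bases apart, a set added after the levels were seen. HIST1H2BK at 64.2 FPKM faced HIST1H2AH at 0.0975 FPKM across 331 bases. HIST3H2A at 12.9 FPKM faced HIST3H2BB at 1.05, and HIST2H2BE at 10.1 FPKM faced HIST2H2AC at 2.18. In the pair of HIST1H2BC and HIST1H2AC the H2A gene was the higher, at 10.6 against 3.46 FPKM. Levels therefore differed within pairs in either direction, with no type always ahead. The annotated exons were alike for HIST1H2BK and HIST1H2AH (381 and 387 bases). They differed for HIST2H2BE and HIST2H2AC (2194 and 390), HIST3H2A and HIST3H2BB (895 and 2364), and HIST1H2AC and HIST1H2BC (1668 and 834). The part of exon length in the levels of a pair was not tested.

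CBD and vehicle were compared to learn whether histone mRNA of stimulated keratinocytes differed after CBD. The 19 histone genes with a mean of at least 1 FPKM entered a limma fit on log2(FPKM + 1) over all 12517 genes at that level, two-sided, with Benjamini-Hochberg adjustment over all of them. No histone gene passed the adjusted threshold of 0.05 by limma in either direction, where 0.352% of all tested genes did (44 genes). At an unadjusted p under 0.05, 6 histone genes were higher in CBD libraries and 2 were lower, while 15.4% of all tested genes were higher and 16% lower. The 3 CBD values lay entirely above the 3 vehicle values in 6 of the 19 and entirely below in 2, against 18.7% and 21.9% of all tested genes. Fitted differences were above 0 in 12 genes and below 0 in 7, with a median of 0.039 against -0.013 over all tested genes.

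A second fit, limma-voom on the recovered fragments, reached lower levels and tested 28 histone genes. It called 1 of them, HIST1H2BD, where 10.7% of all 16056 genes it tested were called. Of the 28 genes, 20 had differences above 0, with a median of 0.149 against -0.008 over all genes of that fit.

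**Figure D2:**
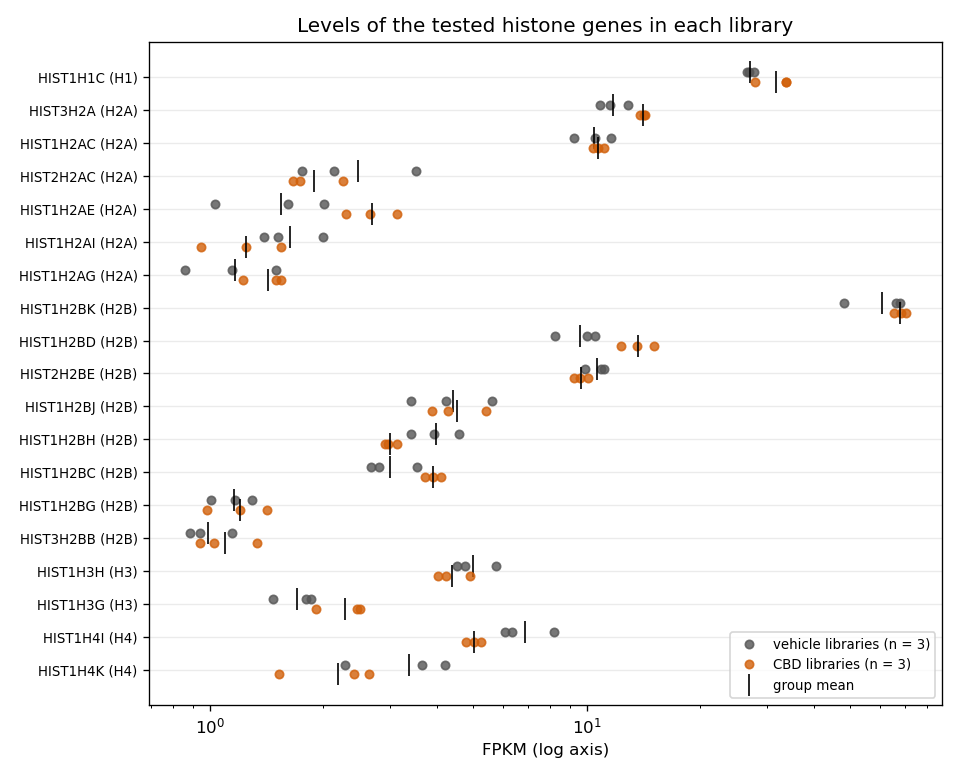
FPKM (log axis) of the 19 tested histone genes, 1 row a gene in order of type, with points for the 3 vehicle and 3 CBD libraries and a tick at each group mean. CBD points lie entirely to the right of vehicle points in 6 genes, among them HIST1H1C, HIST3H2A and HIST1H2BD, and entirely to the left in HIST1H2BH and HIST1H4I.

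Among the 6 H1 genes taken by symbol, most mRNA came from HIST1H1C, which encodes histone H1.2 (chr6:26055787-26056428). It had 27.0, 27.8 and 26.7 FPKM in the vehicle and 33.7, 33.8 and 27.9 FPKM in the CBD libraries. The CBD values lay above the vehicle values, with CBD replicate 3 close to them. The difference of 0.21 ± 0.079 (SE, n = 3 and 3) did not pass the test (limma, adjusted p = 0.123) and was 0.09 with the GC trend removed. HIST1H1D (H1.3), HIST1H1E (H1.4) and HIST1H1B (H1.5) were below 1 FPKM in every library. HIST1H1D ranged from 0.459 to 0.821 FPKM in vehicle and from 0.454 to 0.873 in CBD libraries. HIST1H1E ranged from 0.406 to 0.813 and from 0.193 to 0.860 FPKM, so for both genes the groups overlapped. HIST1H1B had fragments in 1 vehicle and 2 CBD libraries, and HIST1H1A had none. HIST1H1T had 0, 0 and 1 fragments in vehicle and 1, 3 and 6 in CBD libraries. The summed level of the 6 H1 genes was 28.4 ± 0.794 FPKM in vehicle and 33.5 ± 3.19 in CBD libraries (SD, n = 3 each), without overlap.

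Among the H2A genes 6 of 17 were tested, 4 above 0 and 2 below. HIST3H2A (chr1:228456979-228457873), the highest, had 10.9, 12.9 and 11.5 FPKM in the vehicle and 14.2, 14.2 and 13.9 in the CBD libraries. All CBD values were above all vehicle values, but the difference of 0.25 ± 0.066 (SE) missed the threshold (limma, adjusted p = 0.0778). Without vehicle replicate 2, where 1267 of 12517 genes were called higher and 1084 lower, it was 0.31 and passed (limma, adjusted p = 0.0238). With the GC trend removed it was 0.12. HIST1H2AC (chr6:26124145-26139116) had 11.6, 10.5 and 9.26 FPKM in vehicle and 10.4, 11.1 and 10.7 in CBD libraries, so the groups overlapped.

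HIST1H2AE (chr6:26216975-26217483) had the largest fitted difference of the 19 genes, from 1.03, 1.61 and 2.003 FPKM in the vehicle libraries to 3.13, 2.29 and 2.67 in the CBD libraries. These values rest on 12 to 20 fragments in vehicle and 27 to 38 in CBD libraries. The groups did not overlap, and the difference of 0.55 ± 0.16 (SE), a ratio of means of 1.74, missed the threshold (limma, adjusted p = 0.0852). HIST2H2AC had 2.13, 1.75 and 3.53 FPKM in vehicle and 2.26, 1.66 and 1.74 in CBD libraries, which overlapped, the highest value being that of vehicle replicate 3. The remaining 2 tested H2A genes, HIST1H2AI and HIST1H2AG, overlapped too. Summed over the 17 genes, H2A stood at 30.0 ± 1.19 FPKM in vehicle and 33.4 ± 0.373 in CBD libraries (SD, n = 3 each), without overlap.

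H2B genes gave the highest level, the lowest adjusted p and differences of opposite sign. HIST1H2BK (chr6:27146418-27146798) had 48.2, 65.9 and 67.6 FPKM in the vehicle and 65.1, 68.3 and 70.2 in the CBD libraries. Vehicle replicate 1 stood apart from the other 5 libraries, which lay between 65.1 and 70.2. The difference of 0.18 ± 0.13 (SE; limma, adjusted p = 0.357) became 0.024 without vehicle replicate 1 and -0.011 with the GC trend removed. HIST1H2BD (chr6:26158146-26171349) had 9.9994, 10.5 and 8.25 FPKM in the vehicle and 15.1, 12.3 and 13.6 in the CBD libraries. Every CBD value was above every vehicle value, with a ratio of means of 1.43.

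Its difference of 0.47 ± 0.10 (SE, 95% interval 0.23 to 0.72) had the smallest adjusted p of the family, 0.0633 by limma, and was 0.48 with the GC trend removed. By limma-voom HIST1H2BD was higher by 0.51 and passed (adjusted p = 0.0335). It also passed in limma without vehicle replicate 2 (0.54, adjusted p = 0.0303), where 1267 of 12517 genes were called higher and 1084 lower. Among genes of at least 5 FPKM it passed in limma too (0.47, adjusted p = 0.0399), where 10.1% of 7275 genes were called. Over all settings tried its adjusted p ran from 0.0303 to 0.209. The HIST1H2BD gene spans more than its coding exon, with 414 exon bases past the stem-loop shown above. HIST1H2BC (chr6:26114873-26123926) had 2.68, 3.55 and 2.81 FPKM in vehicle and 3.92, 4.09 and 3.72 in CBD libraries. Its groups did not overlap, and the difference of 0.30 ± 0.091 (SE) missed the threshold (limma, adjusted p = 0.0933). HIST1H2BC passed in limma without vehicle replicate 2 (0.39, adjusted p = 0.0246), the setting with 1267 genes called higher and 1084 lower.

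HIST1H2BH (chr6:26251651-26253710) was lower in CBD libraries by its fitted value, from 3.42, 3.94 and 4.58 FPKM in the vehicle libraries to 2.97, 3.15 and 2.92 in the CBD libraries. The groups did not overlap, and the difference of -0.31 ± 0.091 (SE) missed the threshold (limma, adjusted p = 0.0892) and was -0.18 with the GC trend removed. HIST2H2BE (chr1:149884459-149886652) had 9.89, 11.1 and 10.9 FPKM in vehicle and 9.23, 10.1 and 9.57 in CBD libraries, with overlap. HIST1H2BJ ranged from 3.41 to 5.61 FPKM in vehicle and from 3.88 to 5.41 in CBD libraries, with overlap. HIST1H2BG and HIST3H2BB were near 1 FPKM and overlapped.

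The summed H2B level was 97.2 ± 12.8 FPKM in vehicle and 109 ± 2.59 in CBD libraries (SD, n = 3 each). The groups were separated by little, 105 in vehicle replicate 2 against 106 in CBD replicate 1, and overlapped when every library was rescaled to the same sum.

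Of the 15 H3 genes, 2 were tested. HIST1H3H (chr6:27810064-27811300) had 5.73, 4.53 and 4.74 FPKM in vehicle and 4.91, 4.23 and 4.04 in CBD libraries, with overlap and a difference of -0.15 ± 0.096 (SE; limma, adjusted p = 0.307), which was -0.067 without vehicle replicate 1. HIST1H3G (chr6:26269405-26271815) had 1.85, 1.47 and 1.80 FPKM in vehicle and 2.50, 2.46 and 1.91 in CBD libraries. The HIST1H3G groups did not overlap, CBD replicate 3 being next to the vehicle values, and its difference of 0.28 ± 0.10 (SE) did not pass (limma, adjusted p = 0.124). HIST2H3D and HIST1H3B, the next highest, were too low to test: HIST2H3D had 4 to 6 fragments in vehicle and 5 to 10 in CBD libraries, and HIST1H3B had 8, 8 and 0 fragments in vehicle and 7, 6 and 8 in CBD libraries. The H3 sum was 10.1 ± 0.904 FPKM in vehicle and 11.2 ± 0.795 in CBD libraries (SD, n = 3 each), with overlap.

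Both tested H4 genes were lower in CBD libraries by their fitted values. HIST1H4I (chr6:27138588-27139881) had 8.19, 6.34 and 6.07 FPKM in the vehicle and 4.79, 5.24 and 5.02 in the CBD libraries. All CBD values lay below all vehicle values, and the difference of -0.38 ± 0.10 (SE), a ratio of means of 0.731, missed the threshold (limma, adjusted p = 0.0809). Without vehicle replicate 1 it was -0.26 (limma, adjusted p = 0.0648). HIST1H4K had 4.21, 3.65 and 2.29 FPKM in vehicle and 2.42, 1.52 and 2.64 in CBD libraries, from 11 to 30 fragments each. Its groups overlapped, and the difference of -0.45 ± 0.20 (SE) did not pass (limma, adjusted p = 0.181). It was -0.69 with the GC trend removed and -0.29 without CBD replicate 2.

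HIST1H4H had 0.695 to 1.17 FPKM in vehicle and 0.419 to 0.853 in CBD libraries, and HIST4H4 had 0.257 to 0.441 and 0.318 to 0.602 FPKM. Both overlapped. The H4 sum was 12.7 ± 2.73 FPKM in vehicle and 11.4 ± 0.242 in CBD libraries (SD, n = 3 each), with overlap. H4 was the type whose mean was not higher in CBD libraries, and single values weigh on its sums in both groups. The H4 sums were 15.6, 12.2 and 10.2 FPKM in vehicle and 11.3, 11.2 and 11.7 in CBD libraries. Vehicle replicate 1 was the highest. The CBD sums include 1.46 FPKM of HIST1H4J in CBD replicate 1, from 13 fragments, and 1.54 FPKM of HIST2H4A in CBD replicate 2. In the other libraries HIST1H4J reached at most 0.352 FPKM and HIST2H4A at most 0.121.

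**Figure D3:**
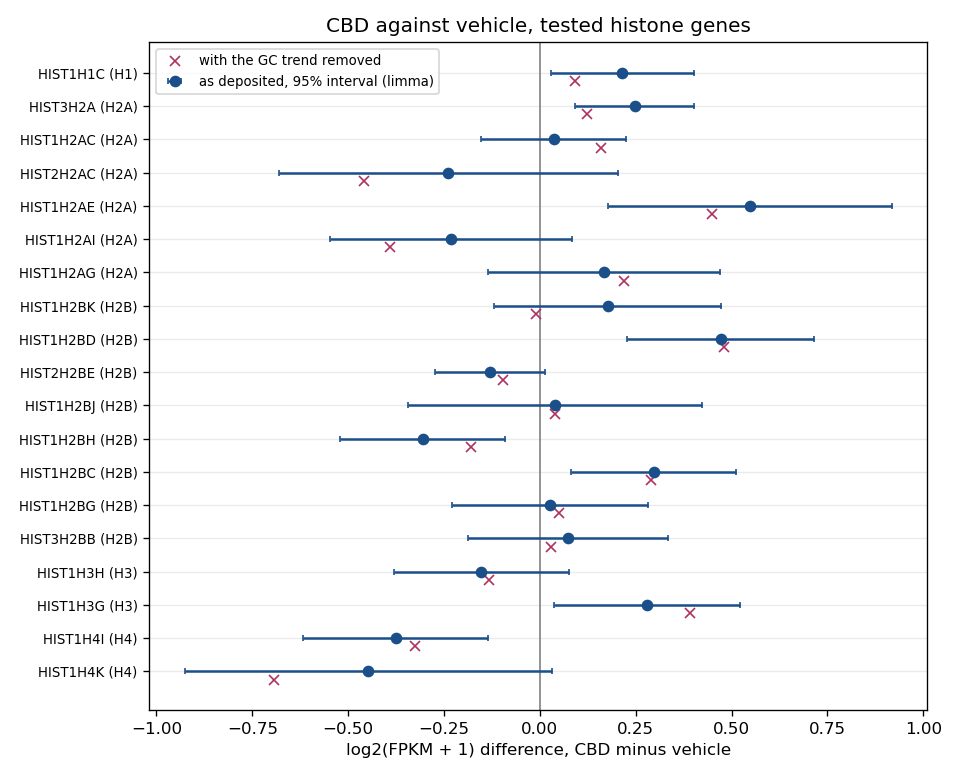
Fitted difference, CBD minus vehicle, on the log2(FPKM + 1) scale for the 19 tested histone genes, with 95% limma intervals (circles and bars), and the same difference after a GC trend was removed (crosses). HIST1H2BD stays near 0.47 to 0.48, while HIST1H2BK moves from 0.18 to -0.011.

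**Figure D4:**
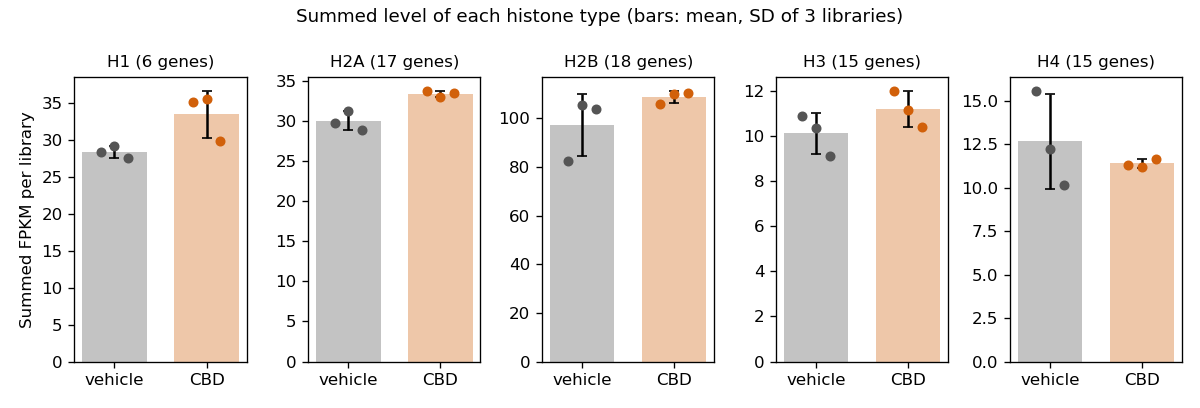
Summed FPKM of the genes of each histone type per library (points), with the mean (bar) and SD (error bar) of 3 vehicle and 3 CBD libraries; each panel has its own axis from 0. H1, H2A and H2B points of the CBD libraries lie above those of vehicle, while H3 and H4 points overlap.

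Over all 71 genes the sum was 167, 188 and 180 FPKM in the vehicle and 198, 201 and 196 in the CBD libraries. The groups did not overlap, also with every library rescaled to the same sum or by median ratios. The GC trend was not removed from any sum. Its removal took the fitted difference of HIST1H2BK from 0.18 to -0.011, of HIST1H1C from 0.21 to 0.09 and of HIST3H2A from 0.25 to 0.12. It took HIST1H2BD from 0.47 to 0.48, HIST1H2AC from 0.036 to 0.16 and HIST2H2BE from -0.13 to -0.096. Without HIST1H2BK, whose value in vehicle replicate 1 stood apart, the sums were 119, 123 and 112 in vehicle and 133, 133 and 126 in CBD libraries. The 52 genes too low for the test had sums of 8.71 to 12.3 FPKM in vehicle and 14.3 to 16.2 in CBD libraries, from 237 to 342 and from 370 to 424 fragments. Of the 40 among them with a fragment, 3 had all CBD values above all vehicle values and 0 the reverse, against 4.01% and 4.08% of the 19229 genes of the table that had a fragment and were too low to test. HIST1H2BF had 21, 17 and 12 fragments in vehicle and 23, 29 and 34 in CBD libraries, and HIST1H4D had 0, 2 and 0 against 3, 3 and 7. HIST2H2AA4, one of the duplicated genes, had 0, 1 and 0 against 3, 3 and 6. The gene just above the level required for the test was HIST3H2BB, with a mean of 1.05 FPKM, and the gene just below it was HIST1H2BF, with 0.860.

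Genes that make, process and use histone mRNA were compared in the same fit, and none of them passed the adjusted threshold by limma. CBD values lay entirely above vehicle values in 5 of 21 S phase genes and entirely below in 10, against 18.7% and 21.9% of all tested genes. These counts were 1 and 5 of 11 cleavage genes, 3 and 5 of 18 chaperones and 0 and 2 of 8 transcription genes. They were 2 and 1 of 7 turnover genes and 4 and 0 of 11 replication-independent histone genes. The GC trend was not removed from these counts. By limma-voom, which called 10.7% of all genes it tested, 4 of 11 replication-independent histone genes were higher (H2AFJ, H1FX, H2AFX and H1F0), 2 of 21 S phase genes were higher (CDT1 and TK1) and 1 was lower (CLSPN). It called lower 1 of 11 cleavage genes (CPSF2) and 2 of 18 chaperones (SUPT16H and ATRX), with 0 called among the transcription and turnover genes. The smallest limma-voom adjusted p-values were 0.00943 for H2AFJ, 0.0101 for CDT1 and 0.0109 for H1FX. Of 8 transcription genes, 3 were above 0 and 5 below, with a median of -0.065. NPAT, the coactivator that cyclin E and CDK2 act on at histone genes, had 11.3, 8.51 and 9.34 FPKM in vehicle and 7.74, 7.53 and 8.17 in CBD libraries, without overlap (difference -0.27 ± 0.095, SE; limma, adjusted p = 0.113). CASP8AP2, which works with NPAT, had a difference of -0.22 and E2F1, a regulator of S phase entry, of 0.19. With the GC trend removed these 3 differences were -0.12, -0.061 and -0.019, and the median of the list was -0.0071.

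Of 12 genes for the cleavage of histone mRNA 11 were tested, 2 above 0 and 9 below, with a median of -0.12. SLBP had 54.6, 49.1 and 50.01 FPKM in vehicle and 47.7, 45.7 and 48.2 in CBD libraries, without overlap (-0.11 ± 0.056, SE; limma, adjusted p = 0.205). CPSF2, a subunit of the cleavage complex, had the smallest adjusted p of this list (-0.30, limma, adjusted p = 0.0738), followed by the cap-binding gene NCBP1 (-0.25) and ZNF473 (-0.23), a zinc finger protein of the U7 pathway. With the GC trend removed CPSF2 was -0.16 and NCBP1 -0.14. The 7 genes of histone mRNA translation and turnover had 2 values above 0 and 5 below, with a median of -0.026. Those with the smallest p were MIF4GD (0.19), which links SLBP to translation, the helicase UPF1 (0.12) and the uridylyl transferase TUT7 (-0.13). With the GC trend removed MIF4GD was 0.069, UPF1 turned to -0.043 and TUT7 to 0.0055, and the median of the list turned to 0.012.

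Histone chaperones, which carry histones to DNA, gave 6 values above 0 and 12 below among 18 tested genes, with a median of -0.022. SUPT16H, a subunit of the FACT complex, had a difference of -0.23, NASP of -0.15 and ATRX of -0.21. With the GC trend removed these were -0.14, -0.091 and -0.034, and the median of the list was -0.012. Of the 21 S phase genes 7 were above 0 and 14 below, with a median of -0.099. CDT1, a licensing factor, had 23.8, 28.2 and 26.6 FPKM in vehicle and 33.5, 34.4 and 35.9 in CBD libraries (0.39, limma, adjusted p = 0.0557), which was 0.12 with the GC trend removed. The thymidine kinase gene TK1 had a difference of 0.22 and the checkpoint gene CLSPN of -0.24, which were 0.024 and -0.15 with the GC trend removed. The median of the S phase list was then -0.063. PCNA, the DNA clamp, had 140 to 151 FPKM in vehicle and 134 to 143 in CBD libraries, with overlap.

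Replication-independent histone genes had 10 values above 0 and 1 below among 11 tested, with a median of 0.057. H1FX, which encodes H1.10, had 64.0, 116 and 86.6 FPKM in vehicle and 159, 140 and 154 in CBD libraries, without overlap (0.80 ± 0.19, SE; limma, adjusted p = 0.0702). With the GC trend removed the H1FX difference was 0.46. H2AFJ had 7.81, 11.8 and 9.40 FPKM in vehicle and 15.4, 15.7 and 14.4 in CBD libraries (0.61 ± 0.13, SE; limma, adjusted p = 0.0605). H2AFX, the H2A.X gene, had a difference of 0.22, which was -0.082 with the GC trend removed. Their 12 genes summed to 673 to 802 FPKM in vehicle and 862 to 918 in CBD libraries, against the 167 to 201 FPKM of the 71 replication-dependent genes.

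**Figure D5:**
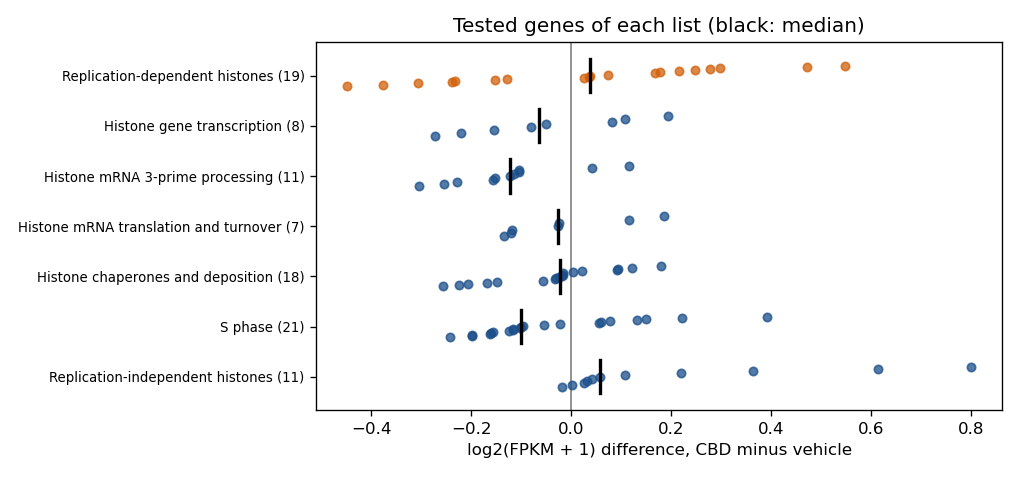
Fitted difference, CBD minus vehicle, on the log2(FPKM + 1) scale of each tested gene (points) in the replication-dependent histones and 6 lists of related genes, with the number tested in brackets and the median as a black bar. Medians run from -0.12 for the 3-prime processing genes to 0.057 for the replication-independent histones, and 0 of the genes shown passed the adjusted threshold by limma.

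Markers of the labelled cell type were high. KRT5 and KRT14, keratins of basal keratinocytes, had 2575 to 3649 FPKM in all 6 libraries, and the 7 keratinocyte markers summed to 8291 to 10085 FPKM in vehicle and 10616 to 11192 in CBD libraries. Fibroblast markers summed to 6.94 to 7.70 and 8.94 to 8.99 FPKM, carried by COL1A1, with 1 of 7 tested and PDGFRA at 0. Leukocyte markers summed to 2.17 to 3.06 FPKM in vehicle and 2.22 to 3.14 in CBD libraries, with 1 of 5 tested. Among them CD3E was at 0 and PTPRC reached at most 0.00471 FPKM. Melanocyte markers summed to 1.60 to 2.01 and 1.93 to 2.04 FPKM, with 1 of 5 tested and TYR at 0. The endothelial markers summed to at most 0.159 FPKM. The part of the keratinocyte and COL1A1 levels in the histone differences was not tested.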

How the data were processed

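RNA of 3 CBD and 3 vehicle samples, grouped by the treatment label with replicate numbers from the titles, gave paired-end libraries, per the labels' protocols. The authors deposited 1 table of FPKM per gene and library. An aligner, HISAT2 2.0.5, and a read counter, featureCounts 1.5.0-p3, are listed in the submitters' processing notes; genome build, annotation, strand and multi-match settings are not given in the sources used here. All 58735 gene identifiers matched GENCODE 29 (GRCh38), the source of gene spans, exon lengths and transcripts. Fragment numbers were recovered as FPKM times exon length times a scale for each library; 100% came out whole at a tolerance of 0.01. As FPKM is relative to the library total, a change in abundant genes moves the others. A floor of 3 fragments is 0.126 to 0.153 FPKM for a gene of 1 kb, covering counting error only.

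Differences came from limma 3.58.1 in R 4.3.3 on log2(FPKM + 1), which understates changes of low genes, over 12517 genes with a mean of at least 1 FPKM (trended prior with 3.00 degrees of freedom, 4 residual). Alternatives were other pseudocounts, filters and scalings, no trend, a replicate block, a removed loess GC trend (span 0.3), limma-voom on fragments (mean of at least 10) and leaving out each library. On simulated data the fit called 40.8% of genes changed 1.5-fold, 96.9% of those changed 2-fold and 11 unchanged genes. The simulation used the same spread setting for all genes and no library or GC effects, unlike these data. Genes named are the 4 highest of each type, called genes, the 4 largest non-overlapping rises and falls, and the 3 smallest p of each list; others named were chosen after their values were seen. Members and lists were chosen with earlier results of these data known. Promoters are RefSeq GRCh38.p14, matched for 66 of the 71 genes. Python 3.11.15, pandas 2.3.3, numpy 2.4.6 and matplotlib 3.10.9 made the tables and plots. A marker gene is not reported here.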

Additional observations from a re-analysis of the deposited data

How the results depend on the processing

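Of 19 other settings, all gave 0 histone genes called lower. The number called higher, 0 in the fit reported, was 1 among genes with a mean of at least 5 FPKM and 1 by limma-voom (HIST1H2BD in both), settings that called 10.1% and 10.7% of all genes they tested. Leaving out a library gave 0 to 3; the 3 came without vehicle replicate 2 (HIST3H2A, HIST1H2BD and HIST1H2BC), where 1267 of all genes were called higher and 1084 lower, against 32 and 12 with all libraries. The median difference of 0.039 became 0.177 among genes of at least 5 FPKM, 0.149 by limma-voom, and 0.014 to 0.123 when a library was left out, the highest without CBD replicate 1. It was above 0 in every setting.

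Same-numbered samples did not vary together (correlations of deviations -0.0027, 0.052 and 0.024), so the numbers were not treated as pairs. With a replicate block 0 histone genes were called in either direction and the median was 0.039; of all genes, 0 were called.

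Of 277 values of the named genes under these settings, 267 kept direction and side of the threshold, 5 newly passed it and 5 reversed. The reversed values were those of HIST1H2BK with the GC trend removed (-0.011, also with the replicate block), HIST1H2AC without vehicle replicate 3 (-0.041), and HIST1H2BJ without vehicle replicate 1 (-0.10) and without CBD replicate 2 (-0.073). Leaving out libraries gave -0.041 to 0.11 for HIST1H2AC and -0.10 to 0.19 for HIST1H2BJ. Apart from the fewer samples or genes in a setting, the cause was not tested. Genes under 1 FPKM rest on few fragments, which limits the precision of their values.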
